A study of Mus musculus with 43 samples.

Results

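The genes described here are 36 genes of the unfolded protein response and of the secretory machinery of the endoplasmic reticulum, measured by RNA sequencing of whole mouse lung. They were chosen by name, and all 36 were found by NCBI Gene ID among the 24475 genes of the deposited table and passed the filter on low counts. By role, 9 are chaperones and their helpers in the reticulum, 6 fold glycoproteins or form disulfide bonds, 6 belong to the degradation of misfolded proteins, 7 are stress sensors or the factors downstream of them, and 8 move proteins into the reticulum or between it and the Golgi.

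Lungs came from female mice of a hybrid 129S6/C57BL/6 background, for which an age of 8 to 12 weeks is stated. That age is shorter than the 19 weeks of exposure, so it cannot be the age at which those lungs were taken. Age at collection is not given here, and it may differ between the groups. Where the antibodies were assessed, the mice had IL-4, IL-33 and the ectodomain of IL-4Rα replaced by the human sequences, so that antibodies against the human proteins could bind. The labels do not say library by library which mice carried these alleles. House dust mite extract (HDM) was given intranasally 3 times a week. Of the 43 libraries, 5 came from mice given saline, 6 from mice exposed for 11 weeks and 7 from mice exposed for 19 weeks, all without antibody. A further 25 came from mice exposed for 19 weeks and treated with antibody. Of these, 7 had an isotype control, 6 had itepekimab (which binds IL-33) together with isotype, 7 had dupilumab (which binds IL-4Rα) together with isotype, and 5 had itepekimab and dupilumab, called the combination below. The design text names exposures of 4, 15 or 19 weeks, whereas the labels used here give 11 or 19 weeks. It also names antibody starts at day -3, at 4 weeks or at 11 weeks, and neither the start for these libraries nor the duration of saline is in the labels. The labels number the libraries of a group without stating that each is a separate mouse, so p-values measure the spread between these libraries.

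The unfolded protein response is the program by which a cell matches the folding capacity of its endoplasmic reticulum to the load of secreted and membrane proteins. The sensors IRE1α, PERK and ATF6 sit in the reticulum membrane, and unfolded protein in the lumen activates them. They then raise chaperones, folding enzymes and degradation components through the transcription factors XBP1, ATF6 and ATF4. In the lung the machinery is best known from cells with a heavy secretory load, such as plasma cells, mucous cells and alveolar type 2 cells.

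Many promoters of this program carry the endoplasmic reticulum stress element (ERSE), a CCAAT box and a CCACG box that ATF6 and XBP1 recognise. RefSeq promoter windows (GRCm38.p6, 250 bases before to 50 bases after the start site) were at hand for 30 members. The ERSE letters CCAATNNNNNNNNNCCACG, searched on both strands, were in 8 of these 30 members (Calr, Canx, Creld2, Dnajc3, Hsp90b1, Hspa5, Pdia6 and Syvn1), against 0.137% of all 27025 genes with a window. The shorter ERSE-II, ATTGG and CCACG 1 base apart, was in 2 of 30 (Dnajb11 and Herpud1), against 0.0444%. The stretches below are the 250 bases before the start site of 5 of these genes, 5′ to 3′ on the strand of the gene, with the ERSE or ERSE-II in capitals. They are shown because 4 of the genes were called higher in mite-exposed lungs in the results that follow, whereas Canx carries the same element and was called in no comparison.
Hspa5 (chr2:34771840-34772089, plus strand): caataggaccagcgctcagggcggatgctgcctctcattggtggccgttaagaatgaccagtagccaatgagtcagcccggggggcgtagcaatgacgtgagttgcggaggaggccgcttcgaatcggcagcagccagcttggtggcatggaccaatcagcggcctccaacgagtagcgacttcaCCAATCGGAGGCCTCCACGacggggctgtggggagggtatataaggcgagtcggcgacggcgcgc
Creld2 (chr15:88819396-88819645, plus strand): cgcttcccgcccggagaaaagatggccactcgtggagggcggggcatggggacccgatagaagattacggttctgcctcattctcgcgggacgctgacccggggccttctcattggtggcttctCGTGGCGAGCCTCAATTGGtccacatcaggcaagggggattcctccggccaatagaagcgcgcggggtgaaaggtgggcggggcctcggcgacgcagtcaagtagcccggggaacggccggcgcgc
Syvn1 (chr19:6046326-6046575, plus strand): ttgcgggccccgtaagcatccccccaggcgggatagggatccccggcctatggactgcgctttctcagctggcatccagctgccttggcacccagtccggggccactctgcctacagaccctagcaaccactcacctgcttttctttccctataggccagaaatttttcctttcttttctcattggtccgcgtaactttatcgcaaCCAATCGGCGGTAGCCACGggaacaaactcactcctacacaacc
Herpud1 (chr8:94386179-94386428, plus strand): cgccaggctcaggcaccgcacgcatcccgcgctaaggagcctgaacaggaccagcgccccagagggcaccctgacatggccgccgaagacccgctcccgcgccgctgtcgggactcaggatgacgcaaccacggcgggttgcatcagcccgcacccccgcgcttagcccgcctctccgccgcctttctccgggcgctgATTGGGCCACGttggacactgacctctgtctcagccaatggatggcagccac
Canx (chr11:50325674-50325923, minus strand): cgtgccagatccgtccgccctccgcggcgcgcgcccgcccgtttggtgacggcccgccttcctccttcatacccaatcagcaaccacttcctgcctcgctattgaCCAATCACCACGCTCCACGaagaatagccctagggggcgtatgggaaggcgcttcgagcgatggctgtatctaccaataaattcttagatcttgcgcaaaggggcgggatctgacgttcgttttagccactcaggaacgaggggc
Counted from the first base of the match, the element began 65 bases before the start site in Hspa5, 126 in Creld2 (on the opposite strand), 44 in Syvn1, 52 in Herpud1 and 145 in Canx. A match describes these letters only, and does not show that a factor binds there. The members were chosen by name as genes of this program, so their larger share of matches is a description and not a test.

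Gene positions are those of the RefSeq gene annotation (mm10). Total counts ran from 11932579 to 26749395 per library, and 15979 genes were tested. Markers of lung were abundant: the 7 alveolar type 2 genes summed to at least 10790 CPM (counts scaled to library size) in every library. Libraries differed in how their log2 CPM depended on the GC content of transcripts. The slope on GC, per 10 percentage points, averaged -0.62 in saline and -0.38 at 11 weeks. Its mean was 0.16 at 19 weeks and -0.13 with isotype. It was 0.34 in the combination, 0.27 in the anti-IL-33 group and 0.26 in the anti-IL-4Rα group. It exceeded 0.75 in 10 libraries, 3 of the combination, 3 of anti-IL-4Rα, 2 of anti-IL-33 and 2 of 19 weeks, which are called steep libraries. The members' transcripts had a GC content of 40.6% to 58.2%, with a median of 50.6%, against 50.2% for all tested genes. Values with the slope as a covariate, or without the steep libraries, are given where they change a result. The slope was itself computed from the expression values and differed with exposure, at -0.85 to -0.35 in saline and -0.41 to 0.85 at 19 weeks. Because these ranges barely overlapped, a fit with the covariate cannot fully tell exposure and slope apart.

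Mite exposure was compared with saline to describe the secretory program in inflamed lung. The chaperones Creld2, Sdf2l1, Manf, Dnajb11 and Hyou1, the degradation components Edem1 and Syvn1, and the translocation subunits Ssr4 and Sec61b were higher at 11 weeks, at 19 weeks and with isotype. In the same groups the chaperones Dnajb9 and Dnajc3, calnexin, the disulfide isomerase Pdia3 and the stress sensors themselves were not called, although at 19 weeks each passed the threshold with the slope on GC in the fit. The 36 members summed to 4900 ± 600.3 CPM (SD, n = 5) in saline lungs, 8026 ± 970.3 (n = 6) at 11 weeks and 7655 ± 288 (n = 7) at 19 weeks, which is 1.64-fold and 1.56-fold the saline mean. By library the sum was 4209 to 5852 CPM in saline, 6747 to 9622 at 11 weeks and 7350 to 8042 at 19 weeks, with no overlap between saline and either exposure. At 19 weeks this separation depended on the TMM scaling of library sizes. As a share of unscaled counts the members were at 0.580% to 0.729% in saline and 0.802% to 1.13% at 11 weeks. At 19 weeks they were at 0.606% to 0.906%, with replicates 1, 2 and 7 inside the saline range. Whole-lung values cannot tell apart more cells of a secretory type and more RNA per cell.

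At 11 weeks 17 of 36 members were called higher and 0 lower (edgeR quasi-likelihood test over all genes, Benjamini-Hochberg adjusted p under 0.05), where 8.65% of all tested genes were called higher and 6.74% lower. At 19 weeks 20 were higher and 0 lower, against 19.2% and 15.6% of all genes. With the isotype antibody 22 were higher and 0 lower than in saline, against 13.0% and 12.4%. The median log2 fold change of the members was 0.70, 0.72 and 0.81 in these 3 comparisons, and that of all genes was 0.00, 0.01 and 0.01. The comparisons share the 5 saline libraries, so their values are set side by side and not counted as independent. By role, the members higher at 11 weeks, at 19 weeks and with isotype were 7, 5 and 7 of 9 chaperones, 3, 3 and 3 of 6 folding enzymes, 2, 4 and 4 of 6 degradation components, 1, 3 and 3 of 7 sensors and factors, and 4, 5 and 5 of 8 translocation and transport genes. In all, 27 members were called in at least 1 of the 9 comparisons made and 9 in none, namely Canx, Pdia3, Pdia6, Dnajc3, Derl1, Ern1, Eif2ak3, Sec24d and Ssr1.

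**Figure D1:**
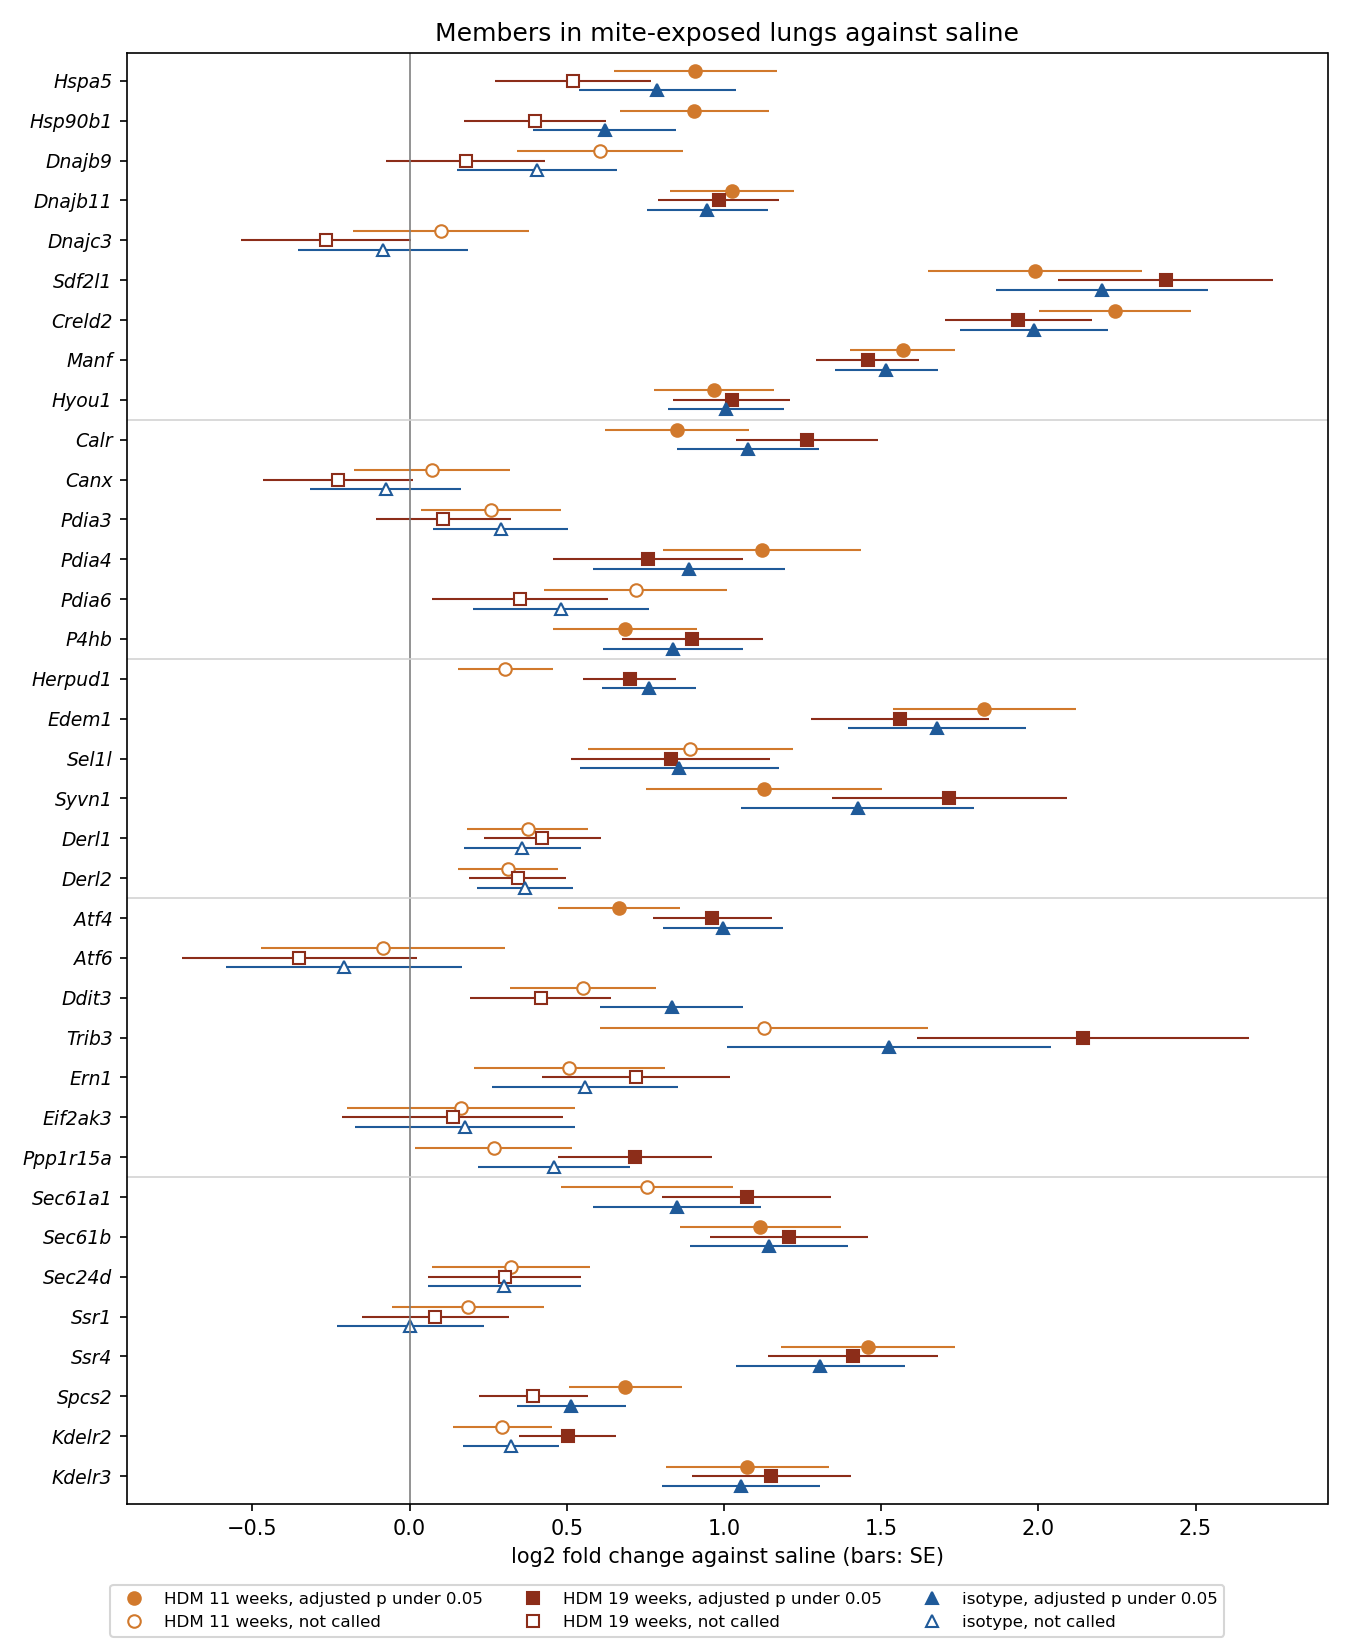
Log2 fold change against saline of each member (rows, separated by grey lines into chaperones, folding enzymes, degradation, sensors and factors, and translocation and transport) at 11 weeks of HDM (circles), 19 weeks of HDM (squares) and 19 weeks with isotype (triangles). Bars are 1 standard error and filled symbols have an adjusted p under 0.05. Sdf2l1 and Creld2 lie near 2 or above in all 3 comparisons, and Canx and Atf6 lie near 0 or below.

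Chaperones gave the largest differences. Creld2, a disulfide isomerase-like protein released under reticulum stress (Gene ID 76737, chromosome 15, 88819646 to 88826681), was at 25.6, 19.3, 23.4, 19.8 and 18.1 CPM in the saline libraries. Its lowest, median and highest values were 66.9, 95.4 and 143 CPM at 11 weeks, 60.8, 75.6 and 108 at 19 weeks and 73.1, 78.3 and 119 with isotype. Every mite-exposed library of these groups was above every saline library. Creld2 rose by 2.24 ± 0.24 on the log2 scale (± SE) at 11 weeks (adjusted p = 6.73e-09), by 1.94 ± 0.23 at 19 weeks (4.80e-08) and by 1.99 ± 0.23 with isotype (2.98e-08, edgeR).

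Sdf2l1, a partner of the Hsp40 proteins that keeps unfolded chains soluble (Gene ID 64136, chromosome 16, 17130138 to 17132383), was at 14.1, 10.7, 15.1, 10.5 and 8.88 CPM in saline. It was at 32.8, 46.1 and 66.6 CPM (lowest, median and highest) at 11 weeks, 42.02, 62.1 and 92.7 at 19 weeks and 43.1, 49.1 and 70.3 with isotype. It rose by 1.99 ± 0.34, 2.41 ± 0.34 and 2.20 ± 0.34 on the log2 scale, the largest change of any member at 19 weeks, with no overlap with saline. Manf, a small secreted factor that binds Hspa5 (Gene ID 74840, chromosome 9, 106888753 to 106891938), was at 47.8, 32.8, 49.3, 31.8 and 30.7 CPM in saline and at 87.2 to 142, 86.5 to 119 and 90.2 to 135 CPM in the same 3 groups. Its rise of 1.57 ± 0.17, 1.46 ± 0.16 and 1.52 ± 0.16 was the most precise among the large ones. Manf shares exon sequence with Rbm15b on the same strand, and how the counting divided such reads is not given in the sources used here.

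Hspa5, which encodes BiP, the central Hsp70 of the reticulum (Gene ID 14828, chromosome 2, 34772090 to 34776529), was at 571, 388, 433, 382 and 341 CPM in saline. It was at 586, 772 and 1052 CPM at 11 weeks, 355, 692 and 844 at 19 weeks and 593, 722 and 859 with isotype, so that the groups overlapped only at 19 weeks. Hspa5 rose by 0.91 ± 0.26 at 11 weeks (adjusted p = 0.012) and by 0.79 ± 0.25 with isotype (0.0173), and its 0.52 ± 0.25 at 19 weeks was not called (0.0966, edgeR). With the slope on GC as a covariate the value at 19 weeks was 0.97 (adjusted p = 3.94e-06), and without the steep libraries it was 0.70 (0.00144), both past the threshold. The isotype call was lost without saline replicate 2, 4 or 5, at 0.70 to 0.74.

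Hsp90b1, the Hsp90 of the reticulum (GRP94), was the most abundant chaperone, at 869, 649.6, 659, 629 and 553 CPM in saline. It was at 917, 1273 and 1546 CPM at 11 weeks, 574, 995 and 1085 at 19 weeks and 868, 1060 and 1127 with isotype. It rose by 0.91 ± 0.24 at 11 weeks and by 0.62 ± 0.23 with isotype, where saline replicate 1 lay within the isotype range, and its 0.40 ± 0.23 at 19 weeks was not called (adjusted p = 0.16, edgeR). The isotype call held only in the full set and without saline replicate 1 or isotype replicate 3 or 4: leaving out any other library of the 2 groups gave 0.54 to 0.62, not called.

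Dnajb11, an Hsp40 that delivers clients to Hspa5, was at 68.4, 55.7, 62.1, 54.9 and 55.1 CPM in saline and rose by 1.02 ± 0.20, 0.98 ± 0.19 and 0.95 ± 0.19 in the 3 groups, to 108 to 138, 102 to 130.4 and 95.5 to 149 CPM. Hyou1, the nucleotide exchange factor of Hspa5, was at 147, 111, 118, 109 and 101 CPM in saline and rose by 0.97 ± 0.19, 1.02 ± 0.19 and 1.01 ± 0.19, to 182 to 271, 221 to 265 and 193 to 284 CPM. Neither overlapped saline in any of the 3 groups. The other two Hsp40 co-chaperones differed from these. Dnajb9 gave 0.61, 0.18 and 0.41, and Dnajc3, which restrains the kinase PERK, gave 0.10, -0.27 and -0.08, none of them called.

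**Figure D2:**
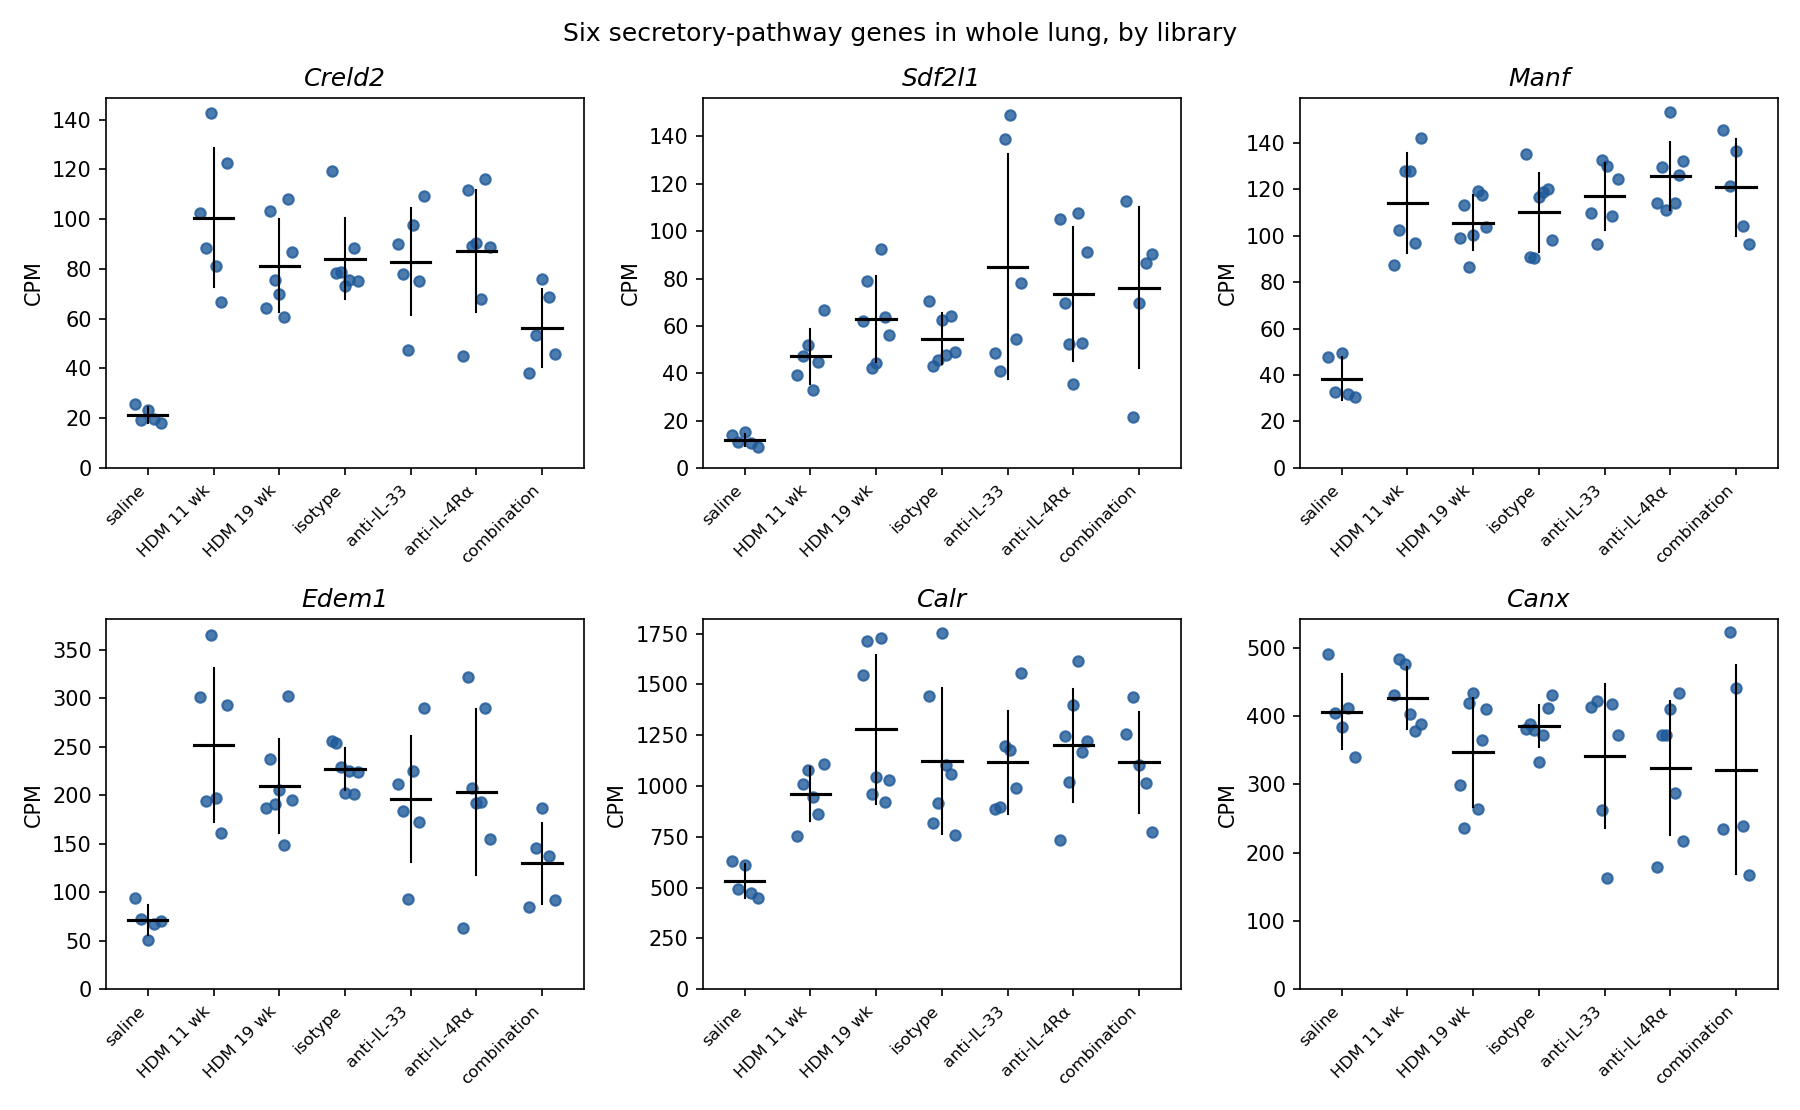
CPM of 6 members in each library (points) of the 7 groups, with the mean (horizontal bar) and SD (vertical line); each vertical axis starts at 0. Creld2, Sdf2l1, Manf, Edem1 and Calr show saline libraries below every library at 11 weeks, 19 weeks and with isotype, whereas Canx lies at 339.8 to 491 CPM in saline and 236 to 484 CPM in those 3 groups.

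Among the folding enzymes the lectin chaperones calreticulin and calnexin, which bind the same monoglucosylated glycans, parted. Calr, the soluble one (Gene ID 12317, chromosome 8, 84842088 to 84846931) and the member with the highest mean CPM, was at 629, 495, 613, 473 and 451 CPM in saline. It was at 756, 978 and 1106 CPM at 11 weeks, 923, 1045 and 1730 at 19 weeks and 761, 1061 and 1756 with isotype, each lowest value above the highest saline value. It rose by 0.85 ± 0.23 (adjusted p = 0.00791), 1.26 ± 0.23 (4.36e-05) and 1.08 ± 0.23 (3.64e-04, edgeR). Canx, the membrane-bound one (Gene ID 12330, chromosome 11, 50293957 to 50325673), was at 491, 404, 384, 412 and 339.8 CPM in saline and at 378, 417 and 484, 236, 365 and 434 and 332, 381 and 431 CPM in the same groups, which overlapped saline throughout. Its log2 differences were 0.07 (95% interval -0.43 to 0.57), -0.23 (-0.71 to 0.26) and -0.08 (-0.56 to 0.41), not called.

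Of the disulfide isomerases, P4hb and Pdia4 were called in all 3 groups, while Pdia3 and Pdia6 were called in none. P4hb, which is also the beta subunit of prolyl 4-hydroxylase, was at 396, 362, 487, 367 and 315 CPM in saline, 510.3, 628 and 699 at 11 weeks, 574, 703 and 885 at 19 weeks and 547, 639 and 946 with isotype. It rose by 0.69 ± 0.23, 0.90 ± 0.22 and 0.84 ± 0.22 without overlap. Its call at 11 weeks was lost when any library other than saline replicate 3 or 11-week replicate 4 was left out, at 0.60 to 0.69.

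Pdia4 was at 145, 106, 134, 112 and 98.2 CPM in saline, 209, 249.7 and 349 at 11 weeks, 137, 210.4 and 254 at 19 weeks and 198, 229 and 234 with isotype. It rose by 1.12 ± 0.31, 0.76 ± 0.30 and 0.89 ± 0.30, and at 19 weeks 1 library lay within the saline range. That 19-week call (adjusted p = 0.0479, edgeR) was lost when any library other than 19-week replicate 7 was left out, at 0.67 to 0.81, whereas the slope on GC as a covariate moved it to 1.35. The isotype call was lost without saline replicate 2, 4 or 5, at 0.81 to 0.85. Pdia3, the partner of both lectins, gave 0.26, 0.11 and 0.29, and Pdia6 gave 0.72, 0.35 and 0.48, none called.

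The degradation arm, which pulls misfolded glycoproteins out of the reticulum for the proteasome, was led by Edem1 and Syvn1. Edem1, a mannosidase-like protein that marks glycoproteins for disposal (Gene ID 192193, chromosome 6, 108824045 to 108859356), was at 94.1, 72.5, 50.8, 67.1 and 70.8 CPM in saline. It was at 162, 245 and 366 CPM at 11 weeks, 148, 195 and 302 at 19 weeks and 202, 225 and 256 with isotype, and no library of these groups came near the saline range of 50.8 to 94.1. It rose by 1.83 ± 0.29 (adjusted p = 1.28e-05), 1.56 ± 0.28 (4.87e-05) and 1.68 ± 0.28 (1.93e-05, edgeR).

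Syvn1 encodes HRD1, the ubiquitin ligase of the pathway (Gene ID 74126, chromosome 19, 6046576 to 6053718), and Sel1l encodes its adaptor. Syvn1 was at 34.0, 34.2, 36.9, 34.5 and 39.5 CPM in saline, 60.6, 74.2 and 106 at 11 weeks, 59.9, 102 and 196 at 19 weeks and 82.3, 90.3 and 115 with isotype. It rose by 1.13 ± 0.37, 1.72 ± 0.37 and 1.42 ± 0.37 without overlap, and its 11-week call was lost without saline replicate 1, 2, 3 or 4 or 11-week replicate 4 or 9, at 1.02 to 1.13. With the slope on GC as a covariate the 19-week value was 0.76 (adjusted p = 6.59e-04). Sel1l was at 193, 169, 140.0, 167 and 138 CPM in saline, 206, 291 and 374 at 11 weeks, 214, 279 and 373 at 19 weeks and 239, 294 and 343 with isotype, again without overlap.

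Sel1l gave 0.89 ± 0.33 at 11 weeks, not called (adjusted p = 0.0565), and rose by 0.83 ± 0.32 at 19 weeks (0.0387) and 0.86 ± 0.32 with isotype (0.0414, edgeR). Both calls were close to the threshold. The 19-week call was lost when any library other than 19-week replicates 5, 7 and 9 was left out, at 0.74 to 0.88, and the isotype call when any other than isotype replicate 8 was, at 0.79 to 0.91. Herpud1, a scaffold of the ligase complex, was at 93.9, 90.1, 90.0, 93.7 and 72.6 CPM in saline, 92.9, 109 and 121 at 11 weeks, 109, 146 and 171 at 19 weeks and 129, 149 and 172 with isotype. It rose by 0.70 ± 0.15 at 19 weeks (adjusted p = 3.96e-04) and 0.76 ± 0.15 with isotype (1.59e-04), and its 0.30 ± 0.15 at 11 weeks was not called (0.193, edgeR). The derlins, which form part of the exit channel, were not called: Derl1 gave 0.38, 0.42 and 0.36 and Derl2 0.31, 0.34 and 0.37.

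The 3 sensors themselves were not called in any of these 3 groups in the fit without the slope on GC. Atf6 gave -0.08 (-0.87 to 0.70), -0.35 (-1.11 to 0.41) and -0.21 (-0.97 to 0.55), with 95% intervals in parentheses. Eif2ak3, which encodes PERK, gave 0.16, 0.14 and 0.18, and Ern1, which encodes IRE1α, gave 0.51, 0.72 and 0.56. For Ern1 the adjusted p at 19 weeks was 0.0559, and it was 0.00494 with the slope on GC as a covariate, at 1.05 (edgeR).

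Of the factors downstream of PERK, Atf4 was called in all 3 groups. Atf4, the transcription factor of the integrated stress response (Gene ID 11911, chromosome 15, 80255184 to 80257545), was at 70.5, 69.4, 69.6, 66.7 and 75.8 CPM in saline, 93.5, 106 and 151 at 11 weeks, 95.5, 130.0 and 179 at 19 weeks and 111, 137 and 193 with isotype. It rose by 0.67 ± 0.19, 0.96 ± 0.19 and 0.997 ± 0.19 without overlap, and its 11-week call was lost without 11-week replicate 9, at 0.56. Trib3, a pseudokinase induced by ATF4, was at 3.02, 2.81, 4.32, 3.50 and 2.38 CPM in saline, 4.10, 5.33 and 15.9 at 11 weeks, 7.75, 10.6 and 22.7 at 19 weeks and 3.55, 7.39 and 19.5 with isotype. Trib3 spread widely within every mite group.

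Trib3 rose by 2.14 ± 0.53 at 19 weeks (adjusted p = 0.00188) and 1.53 ± 0.52 with isotype (0.025), and its 1.13 ± 0.52 at 11 weeks was not called (0.153, edgeR). With the slope on GC as a covariate the 19-week and isotype values were 0.92 and 0.72. The isotype call was lost without saline replicate 1, 2 or 5 or isotype replicate 1 or 4, at 1.23 to 1.48. Ddit3, which encodes the factor CHOP, was at 11.8, 8.87, 12.2, 10.6 and 12.7 CPM in saline, 14.0, 16.3 and 19.8 at 11 weeks, 12.8, 14.7 and 18.4 at 19 weeks and 16.4, 20.5 and 22.9 with isotype. It was called only with isotype, at 0.83 ± 0.23 (adjusted p = 0.0054), and gave 0.55 ± 0.23 (0.108) and 0.42 ± 0.22 (0.14, edgeR) in the other two groups.

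Ppp1r15a, the phosphatase subunit that reverses PERK signalling, was at 32.1, 32.9, 33.2, 35.4 and 30.8 CPM in saline, 32.6, 39.0 and 51.4 at 11 weeks, 35.0, 41.2 and 91.5 at 19 weeks and 35.9, 40.4 and 61.2 with isotype. It was called at 19 weeks only, at 0.72 ± 0.24 (adjusted p = 0.0215, edgeR), with 1 library inside the saline range. The call was lost without 19-week replicate 2, at 0.54, and with the slope on GC as a covariate, at 0.14. Whether Ddit3 or Ppp1r15a differed between the mite groups is covered by the comparisons of 19 with 11 weeks and of isotype with 19 weeks, in which neither was called.

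Among the translocation genes, the small subunits Ssr4 and Sec61b rose most. Ssr4, the delta subunit of the translocon-associated complex (Gene ID 20832, chromosome X, 73787023 to 73790828), was at 29.9, 28.3, 46.9, 28.6 and 24.9 CPM in saline, where replicate 3 stood highest. It was at 70.9, 81.4 and 115 CPM at 11 weeks, 65.2, 78.9 and 126 at 19 weeks and 63.2, 74.8 and 104 with isotype, all above that library. It rose by 1.46 ± 0.28, 1.41 ± 0.27 and 1.31 ± 0.27, whereas Ssr1, the alpha subunit of the same complex, gave 0.19, 0.08 and 0.00 and was not called. With the slope on GC as a covariate Ssr4 was at 0.93 at 19 weeks, and the GC content of its transcript is 55.1% against 44.6% for Ssr1.

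Sec61a1 and Sec61b encode the pore-forming and the beta subunit of the protein-conducting channel. Sec61b was at 19.8, 21.5, 31.4, 18.6 and 18.6 CPM in saline, 33.9, 42.98 and 70.6 at 11 weeks, 29.8, 57.6 and 62.5 at 19 weeks and 40.2, 44.8 and 62.3 with isotype, and rose by 1.12 ± 0.26, 1.21 ± 0.25 and 1.14 ± 0.25. At 19 weeks 1 library lay within the saline range, whose top was again replicate 3. Sec61a1 was at 139, 129, 156, 129 and 118 CPM in saline, 188, 224 and 279 at 11 weeks, 219, 246 and 388 at 19 weeks and 191, 227 and 329 with isotype. It rose by 1.07 ± 0.27 at 19 weeks and 0.85 ± 0.27 with isotype, and its 0.76 ± 0.27 at 11 weeks was not called (adjusted p = 0.0539, edgeR). With the slope on GC as a covariate these were 0.43, 0.45 and 0.56, all called.

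Spcs2, a subunit of the signal peptidase, was at 83.6, 77.6, 89.5, 77.2 and 71.4 CPM in saline, 109, 126 and 143 at 11 weeks, 85.7, 110.3 and 119.6 at 19 weeks and 95.2, 115 and 134 with isotype. It rose by 0.69 ± 0.18 at 11 weeks and 0.51 ± 0.17 with isotype, the latter lost without saline replicate 1, 2, 4 or 5 or isotype replicate 1 (0.46 to 0.51), and gave 0.39 ± 0.17 at 19 weeks (adjusted p = 0.0716, edgeR). The receptors that return escaped chaperones from the Golgi by their KDEL tails were called in part. Kdelr3 was at 5.66, 3.86, 6.15, 3.69 and 6.64 CPM in saline, 7.73, 10.5 and 16.4 at 11 weeks, 9.82, 11.5 and 13.6 at 19 weeks and 6.51, 11.4 and 13.7 with isotype.

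Kdelr3 rose by 1.07 ± 0.26, 1.15 ± 0.25 and 1.05 ± 0.25, with 1 isotype library inside the saline range. Kdelr2 was at 58.6, 55.0, 49.2, 55.7 and 51.6 CPM in saline and 61.4, 76.9 and 94.9 at 19 weeks, where it rose by 0.50 ± 0.15, and was called in neither other group (0.30 and 0.32). That call was lost with the slope on GC as a covariate, at 0.22. Sec24d, a cargo-binding coat protein of vesicles leaving the reticulum, gave 0.32, 0.30 and 0.30, not called.

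Per kilobase of transcript and over all 43 libraries, the most abundant members were Calr (489 CPM per kb), Hsp90b1 (372), P4hb (216), Hspa5 (177) and Pdia3 (167). The lowest were Ern1 at 4.83, Trib3 at 5.33, Kdelr3 at 7.16 and Eif2ak3 at 7.52 CPM per kb. The members with the largest log2 changes, Creld2 (55.4), Sdf2l1 (53.9) and Manf (47.3), lay at ranks 14, 15 and 17 of 36.

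At 19 weeks 31 members were called higher with the slope as a covariate, 0 lower, and 18 of the 20 calls were kept. Without the steep libraries 28 were higher and all 20 were kept. Among the members the covariate moved down were Trib3 (58.2% GC, 2.14 to 0.92), Syvn1 (57.4%, 1.72 to 0.76) and Sec61b (51.4%, 1.21 to 0.77). Among those it moved up were Sel1l (47.7%, 0.83 to 1.39), Atf6 (46.0%, -0.35 to 0.51) and Canx (42.2%, -0.23 to 0.28), and also Eif2ak3 (51.2%, 0.14 to 0.78), whose GC content is close to that of Sec61b. Members that passed only with the covariate included Canx (adjusted p = 0.0424), Atf6 (0.0433), Eif2ak3 (0.78, 0.0339) and Dnajc3 (0.34, 0.015, edgeR). At 11 weeks, where no library was steep, 24 members were higher with the covariate. The shares of all genes called in these fits are not given here, so the larger counts cannot be read as particular to the members. Creld2, Edem1, Manf and Sdf2l1 stayed at 1.41 or above at 19 weeks under the covariate.

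**Figure D3:**
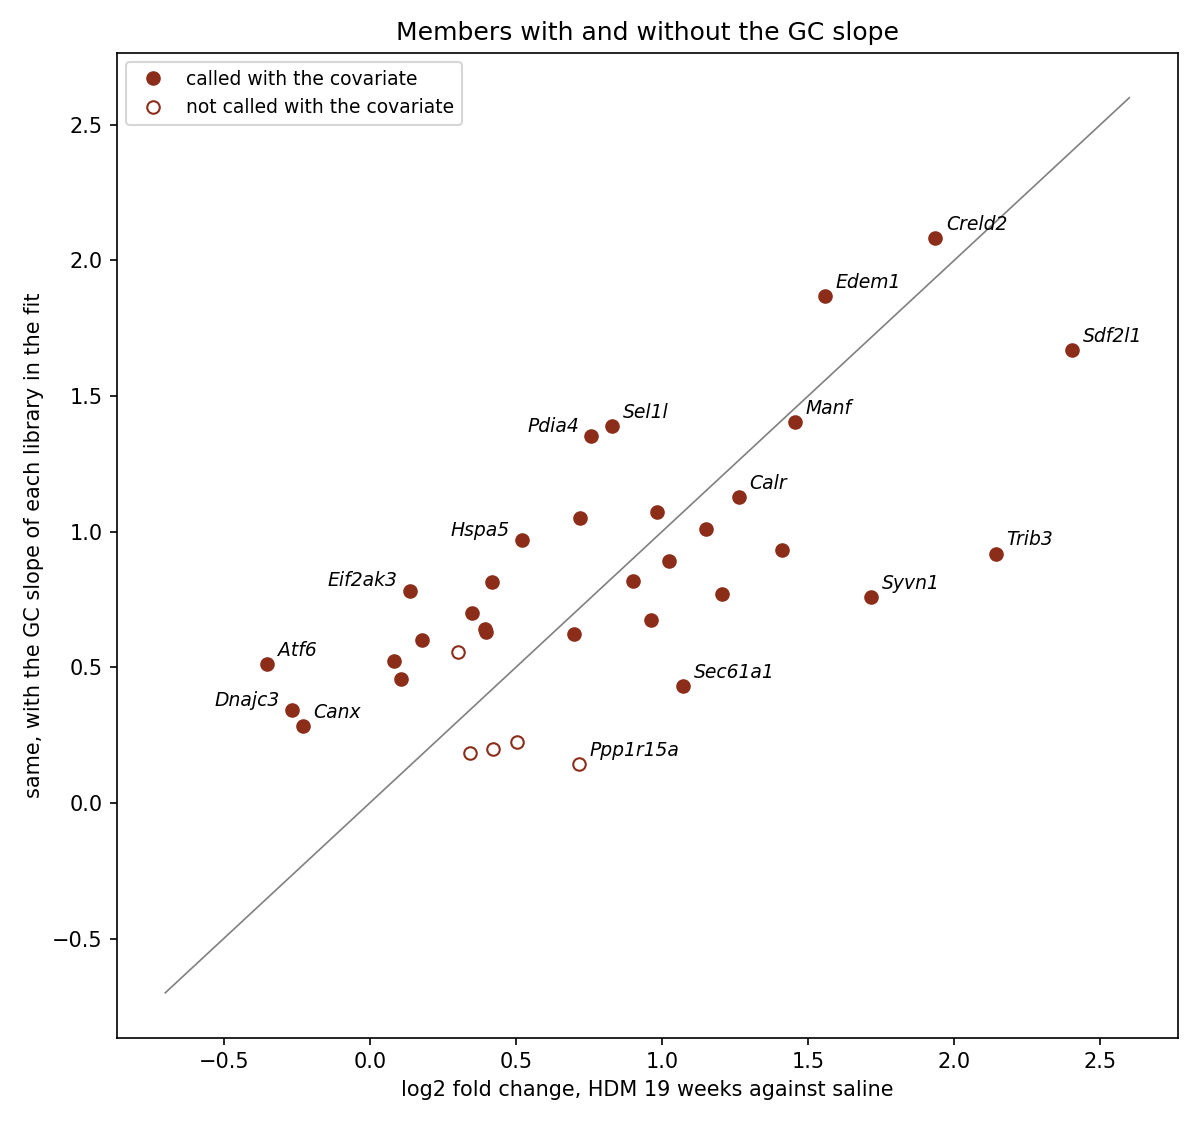
Log2 fold change of each member between 19 weeks of HDM and saline without (horizontal axis) and with (vertical axis) the GC slope of each library in the fit; the line marks equal values, and filled points have an adjusted p under 0.05 with the covariate. Trib3, Syvn1, Sdf2l1 and Sec61a1 lie below the line, and Atf6, Pdia4, Sel1l and Canx lie above it.

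Longer exposure was compared with shorter exposure, and the isotype antibody with no antibody. Between 19 and 11 weeks 0 members were called by edgeR, 3 had an unadjusted p under 0.05, and the median difference was -0.03, where 0.0876% of all genes were called higher and 0.0188% lower. DESeq2 and limma voom also called 0 members. The isotype group was not distinguished from 19 weeks of HDM either: edgeR, DESeq2 and limma voom called 0 members, 1 had an unadjusted p under 0.05, the median difference was 0.02, and edgeR called 0% of all genes in either direction.

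Each single antibody was compared with isotype to ask whether blocking IL-33 or IL-4Rα alone moved this program. Summed over the members, lungs were at 7844 ± 642 CPM with isotype (n = 7), 7759 ± 721 with anti-IL-33 (n = 6) and 8047 ± 1031 with anti-IL-4Rα (n = 7), ranges that overlapped throughout. With anti-IL-33 edgeR called 0 members, 3 had an unadjusted p under 0.05, and DESeq2 and limma voom called 0. Those with the smallest adjusted p were Ssr4 (0.61, 95% interval 0.11 to 1.11, adjusted p = 0.262), Sdf2l1 (0.64, 0.04 to 1.24, 0.269) and Sec61a1 (0.51, 0.01 to 1.01, 0.273). These became 0.28, 0.12 and 0.12 with the slope on GC as a covariate. The median difference was -0.06 over the members and -0.01 over all genes, of which 0% were called.

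With anti-IL-4Rα edgeR called 0 members, 1 had an unadjusted p under 0.05, the median difference was 0.00, and again 0% of all genes were called. That member was Herpud1, at 166, 207 and 247 CPM (lowest, median and highest) against 129, 149 and 172 with isotype. Its difference was 0.44 (95% interval 0.17 to 0.72, adjusted p = 0.308 in edgeR), 6 of 7 libraries were above the highest isotype library, and DESeq2 called 1 member. For the members with the largest mite response the intervals covered 0: Creld2 was at -0.02 (-0.44 to 0.40) with anti-IL-33 and 0.05 (-0.35 to 0.46) with anti-IL-4Rα, and Edem1 at -0.21 (-0.73 to 0.30) and -0.16 (-0.66 to 0.34). Manf had narrower intervals, at 0.09 (-0.21 to 0.39) and 0.19 (-0.10 to 0.48). These comparisons share the isotype libraries.

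In lungs treated with both antibodies the chaperone Dnajb9 was higher than with isotype, and Edem1, Sel1l and Ddit3 were lower. These 4 of 36 members, 1 higher and 3 lower, stood against 12.6% of all genes called higher and 6.32% lower. The median was -0.23 over the members and 0.04 over all genes. The combination libraries were far apart in their slope on GC, at -0.98 in replicate 2, -0.14 in replicate 3 and 0.85 to 1.01 in replicates 5, 8 and 1, and the last 3 are steep. Values of the combination without the steep libraries therefore rest on replicates 2 and 3 only.

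Dnajb9, an Hsp40 that also restrains IRE1α, was at 83.5, 178, 77.4, 72.5 and 62.8 CPM in combination replicates 1, 2, 3, 5 and 8, against 27.9, 53.4 and 68.6 (lowest, median and highest) with isotype and 50.2, 38.0, 37.7, 43.05 and 29.3 in saline. Replicate 2 stood far above the others, and 4 of the 5 libraries were above the highest isotype library. Dnajb9 rose by 0.85 ± 0.25 (adjusted p = 0.0243, edgeR). Without the steep libraries, where only combination replicates 2 and 3 remained, the value was 1.28 (adjusted p = 0.011, edgeR). The call over all libraries was lost without combination replicate 1 or 2, with values from 0.49 to 0.90. It was also lost with limma voom (0.47), with only the 2 groups fitted (0.86) and with the replicate block (0.86).

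Edem1 was at 85.2, 146, 187, 138 and 92.3 CPM in the combination, all below the isotype range of 202 to 256, with 2 of 5 inside the saline range of 50.8 to 94.1. It fell by 0.81 on the log2 scale (SE 0.27, adjusted p = 0.0389, edgeR). Sel1l, at 98.8, 257, 220.4, 109 and 71.1 CPM against 239 to 343 with isotype, fell by 0.95 (SE 0.32, adjusted p = 0.0375), and Ddit3, at 6.71, 20.4, 15.4, 11.7 and 9.82 CPM against 16.4 to 22.9, fell by 0.64 (SE 0.23, adjusted p = 0.0445). The 3 steep libraries were lowest in each of the 3 genes. Without the steep libraries the 3 values were -0.44, -0.29 and -0.16, none of them called.

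The calls of Edem1 and Ddit3 were lost when any library other than isotype replicate 4 and combination replicates 2 and 3 was left out (-0.84 to -0.69 and -0.68 to -0.48), and that of Sel1l without isotype replicate 1, 2 or 3 or combination replicate 1, 5 or 8 (-0.95 to -0.77). Across the left-out libraries the number of members called ran from 0, without combination replicate 1, to 13, without combination replicate 2. The slope on GC as a covariate gave 6 calls, 1 higher and 5 lower, and with the replicate block 0 were called. Cell markers moved in this comparison too, where 12.6% of all genes were called higher and 6.32% lower. Lower in the combination were 5 of 12 matrix fibroblast genes, 3 of 10 alternatively activated macrophage genes, 1 of 10 plasma cell genes, 1 of 12 goblet cell genes and 1 of 6 alveolar type 1 genes. Higher were 5 of 7 club cell genes, 4 of 12 goblet cell genes, 2 of 7 alveolar type 2 genes, 2 of 6 alveolar type 1 genes and 1 of 6 endothelial genes. Fn1, a matrix protein, was at 501 ± 229 CPM against 1807 ± 1064 with isotype (-1.85 ± 0.49), and Scgb1a1, the club cell secretoglobin, at 7709 ± 2711 against 2886 ± 1292 (1.42 ± 0.42). By library the summed plasma cell genes were at 1353 to 7855 CPM against 1657 to 4047, the club cell genes at 6064 to 15075 against 1935 to 6796, the macrophage genes at 8175 to 15920 against 10177 to 30152, and the fibroblast genes at 2998 to 8187 against 3918 to 10397. Their part in the 4 calls was not tested.

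Xbp1, the factor spliced by IRE1α, was at 217 ± 72.4 CPM (SD, n = 5) against 331 ± 45.9 (n = 7), a difference of -0.61 ± 0.25 that was not called (adjusted p = 0.0723, edgeR).

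**Figure D4:**
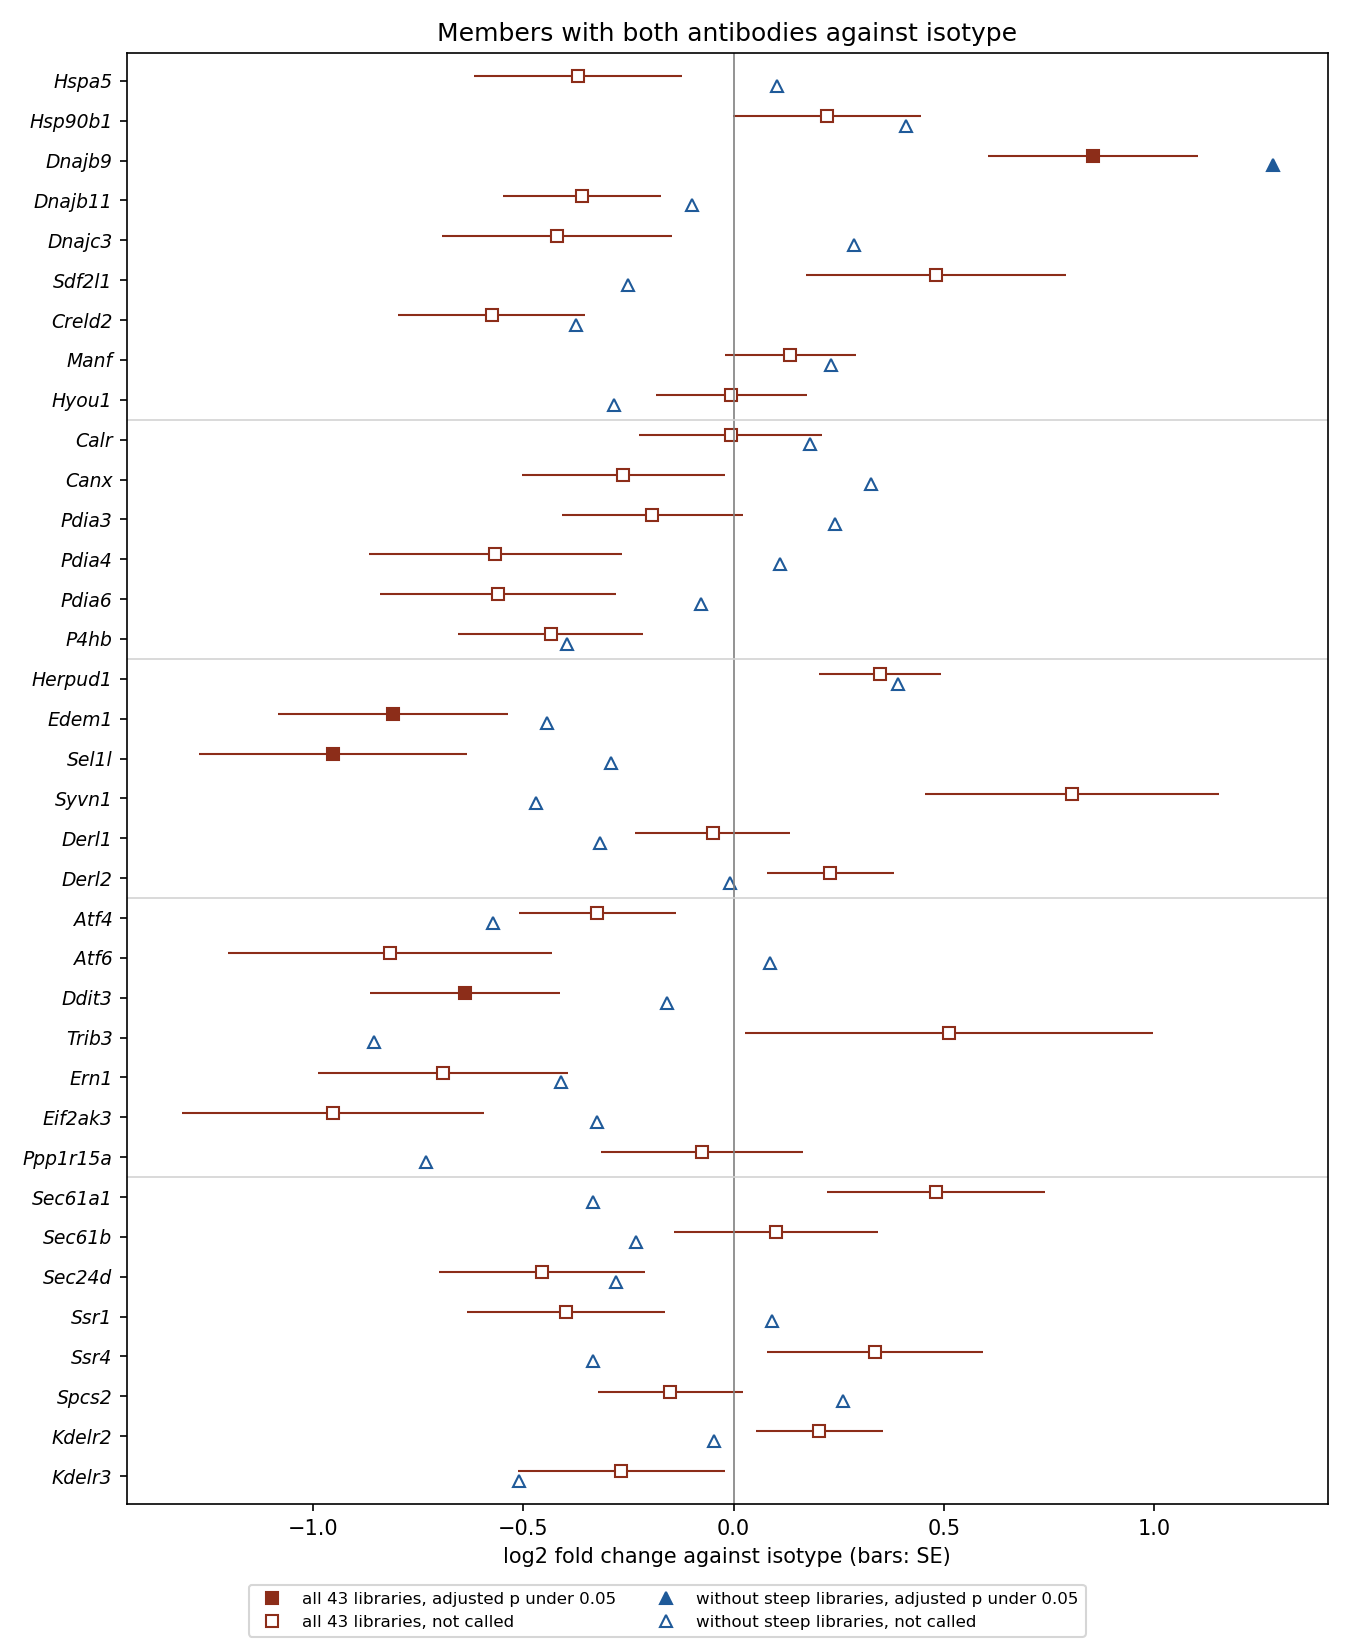
Log2 fold change of each member between the combination and isotype groups over all 43 libraries (squares, bars are 1 standard error) and without the 10 steep libraries (triangles); filled symbols have an adjusted p under 0.05. Dnajb9 is called either way, while Edem1, Sel1l and Ddit3 move toward 0 without the steep libraries.

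Against saline, 7 of 9 chaperones (all but Hspa5 at 0.42 and Dnajc3 at -0.50), Herpud1 and Syvn1 were higher in combination lungs and Atf6 was lower. In all, 19 members were higher and 1 lower, against 27.8% of all genes higher and 20.3% lower, and the median was 0.56. Summed over the members the combination lungs were at 7203 ± 1059 CPM (n = 5), 5727 to 8389 by library, so that the lowest lay within the saline range of 4209 to 5852. As a share of unscaled counts they were at 0.392% to 0.911%, against 0.580% to 0.729% in saline. Sdf2l1 was at 113, 21.6, 69.5, 86.7 and 90.5 CPM and 2.68 ± 0.36 above saline on the log2 scale, Syvn1 at 339, 52.4, 85.7, 167 and 195 CPM and 2.23 ± 0.40 above, and Manf at 146, 121, 136, 104 and 96.4 CPM and 1.65 ± 0.17 above. For Sdf2l1 and Syvn1 replicate 2, the library with the lowest slope on GC, was lowest, and without the steep libraries the values were 1.94 and 0.94.

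Creld2, at 38.2, 53.3, 75.9, 68.8 and 45.9 CPM, was 1.41 ± 0.24 above saline, and its difference from isotype of -0.58 ± 0.22 was not called (adjusted p = 0.0586, edgeR). Calr (1254, 1438, 1104, 1017 and 775 CPM) was 1.07 ± 0.24 above saline and Hyou1 (179, 144, 240.3, 341 and 267 CPM) 1.002 ± 0.20 above. Herpud1, at 166, 196, 194, 207 and 185 CPM, was 1.11 ± 0.16 above saline, with no overlap. Edem1 was 0.87 ± 0.29 above saline, a call lost without combination replicate 3, at 0.68.

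Atf6 was the 1 member called lower than saline, at 20.1, 106, 68.5, 20.4 and 17.9 CPM. Of its libraries 3 were at about 20 CPM and 2 near the saline range of 82.9 to 105. Other members, such as Eif2ak3 (mean log2 CPM -0.95 relative to saline), were also below saline but not called. The 3 low libraries are the steep ones. Atf6 fell by 1.03 on the log2 scale (SE 0.41, adjusted p = 0.0378, edgeR), and was at -0.33 with the slope on GC as a covariate and -0.13 without the steep libraries, not called in either. It was also lost without saline replicate 1, 2 or 4 or combination replicate 1, 5 or 8, at -1.03 to -0.82. Calls of Derl2, Atf4, Trib3, Kdelr2 and Kdelr3 against saline were likewise lost both with the covariate and without the steep libraries, and that of Sec61a1 (423, 139.9, 242, 395 and 488 CPM, 1.33) without the steep libraries, at 0.50. Leaving out 1 library ended the calls of Kdelr2 (combination replicate 1, 0.42), Kdelr3 (saline replicate 2 or 4 or combination replicate 5, 0.60 to 0.69) and Dnajb11 (combination replicate 3, 0.44).

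Those 5 genes had these values. Derl2 was at 72.9, 41.3, 66.3, 68.2 and 69.9 CPM against 45.8, 40.3, 43.9, 40.1 and 40.6 in saline, 0.60 ± 0.17 above it with all libraries and 0.35 without the steep ones. Atf4 was at 151, 73.2, 115, 116 and 106 CPM, 0.67 ± 0.20 above saline and 0.41 without the steep libraries. Trib3 was at 26.3, 2.80, 7.27, 12.6 and 17.3 CPM, 2.04 ± 0.55 above saline and 0.65 without the steep libraries. Kdelr2 was at 100.2, 63.6, 66.8, 79.4 and 79.2 CPM (0.53 ± 0.17) and Kdelr3 at 5.41, 5.13, 9.92, 13.3 and 11.1 CPM (0.79 ± 0.27). The remaining calls were Hsp90b1 at 1509, 1606, 1137, 798 and 975 CPM (0.84 ± 0.24), Dnajb9 (1.26 ± 0.28), Dnajb11 at 62.5, 94.2, 118, 98.7 and 70.9 CPM (0.59 ± 0.20), Sec61b at 65.7, 22.4, 59.8, 60.1 and 52.5 CPM (1.24 ± 0.27) and Ssr4 at 137, 44.0, 79.8, 101 and 133 CPM (1.64 ± 0.29). Of the 19 members higher than in saline, 11 had at least 1 combination library that was not above the saline range, namely Hsp90b1, Dnajb11, Hyou1, Edem1, Derl2, Atf4, Trib3, Sec61a1, Sec61b, Ssr4 and Kdelr3.

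**Figure D5:**
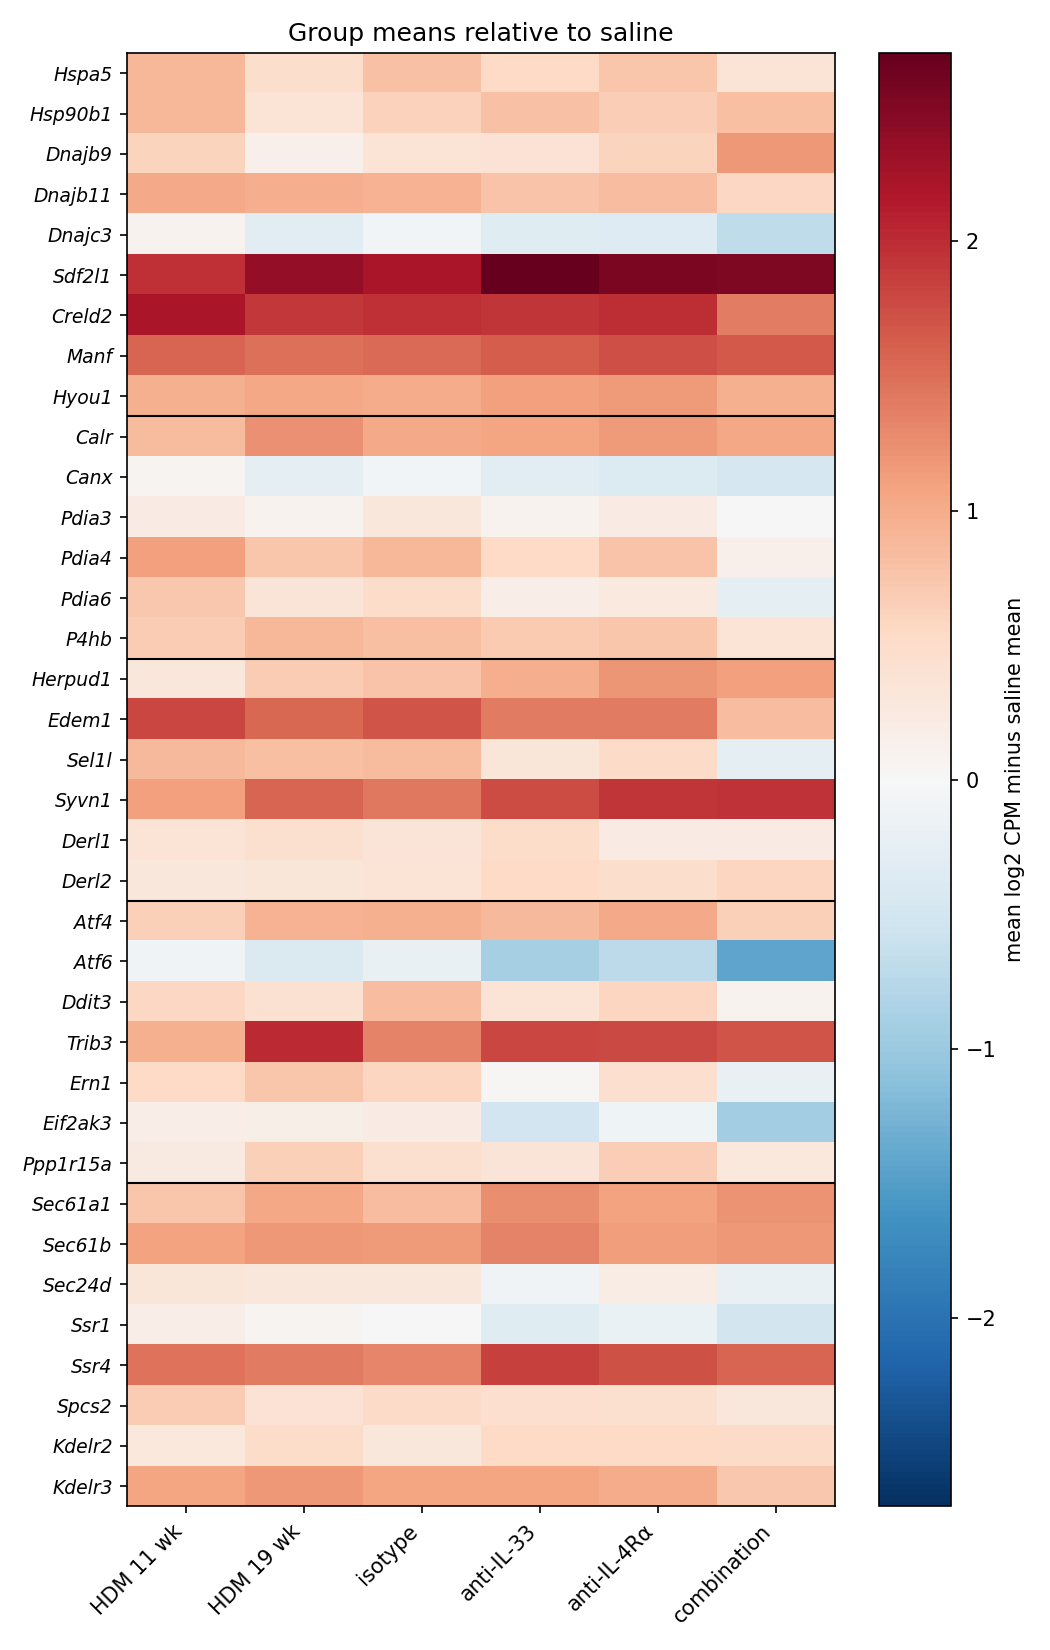
Mean log2 CPM of each member in each mite-exposed group minus its saline mean (colour, red above and blue below; rows in role order with black lines between roles). Sdf2l1, Creld2 and Manf are above saline in all 6 groups, and Atf6 is lowest in the combination.

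Of 67 further genes of the same machinery, none of them a member, 17 were called higher and 0 lower at 11 weeks, 26 higher and 1 lower at 19 weeks, and 19 higher and 0 lower with isotype. Over all genes 8.65%, 19.2% and 13.0% were higher and 6.74%, 15.6% and 12.4% lower. The median log2 fold changes of the 67 genes were 0.44, 0.39 and 0.40. Derl3, a derlin enriched in professional secretory cells, was at 1.71 ± 1.25 CPM in saline and rose by 4.30 ± 0.58, 4.61 ± 0.59 and 4.21 ± 0.58, to 34.0 ± 9.79, 41.8 ± 21.7 and 31.7 ± 8.00 CPM. Bhlha15 (MIST1), a transcription factor of secretory cells, rose by 3.23 ± 0.48, 3.70 ± 0.49 and 3.25 ± 0.48 from 2.05 ± 0.678 CPM. Both exceeded the change of any member in each of these comparisons.

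Atf3, a stress-induced factor, rose by 2.75 ± 0.38, 2.94 ± 0.38 and 2.96 ± 0.38 from 6.49 ± 1.003 CPM, and Ern2, the IRE1 paralog of mucous epithelium, by 3.27 ± 0.83, 2.68 ± 0.82 and 2.81 ± 0.81, though only to between 0.504 and 0.760 CPM. Xbp1 rose from 141 ± 17.2 to 441 ± 104 CPM at 11 weeks, 339 ± 71.3 at 19 weeks and 331 ± 45.9 with isotype, by 1.64 ± 0.27, 1.26 ± 0.26 and 1.23 ± 0.26. The counts do not separate its spliced from its unspliced form. The 1 gene called lower, at 19 weeks, was Dnajc10, a reductase of the reticulum, at -0.77 ± 0.27.

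Between combination and isotype 5 of the 67 were higher and 2 lower. Both are smaller shares than among all genes, of which 12.6% were called higher and 6.32% lower. Atf3 fell by 2.00 (SE 0.36, adjusted p = 0.00237), from 50.5 ± 17.1 to 12.6 ± 4.17 CPM, and Vcp, the ATPase that extracts degradation clients, fell by 0.52 (SE 0.17, adjusted p = 0.0368, edgeR). Among those higher were Atf5 (1.62 ± 0.56), Kdelr1 (1.27 ± 0.44), Creb3l1 (1.21 ± 0.35) and Bhlha15 (1.15 ± 0.41). Their SDs in the combination were large, 286 CPM on a mean of 242 for Atf5. Against saline the combination had 30 of the 67 higher and 5 lower, where 27.8% of all genes were higher and 20.3% lower. The rises were led by Derl3 (5.07 ± 0.61), Bhlha15 (4.40 ± 0.52), Ern2 (3.32 ± 0.86) and Sesn2 (2.68 ± 0.54). Sec23a (-1.14 ± 0.37), Dnajc10 (-1.03 ± 0.30), Fkbp14 (-0.85 ± 0.32) and Stt3b (-0.66 ± 0.24) were lowest.

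Markers of several cell types moved with the same groups, some up and some down. Their counts stand beside the shares of all genes called at 11 weeks, at 19 weeks and with isotype. These shares were 8.65%, 19.2% and 13.0% higher and 6.74%, 15.6% and 12.4% lower. The 10 plasma cell genes, none of them a member, summed to a median of 288 CPM in saline (257 to 759), 3114 at 11 weeks (1781 to 4662), 2438 at 19 weeks (1795 to 3921) and 2602 with isotype (1657 to 4047), and 8, 9 and 8 of 10 were higher than in saline. Jchain, the joining chain of secreted immunoglobulin, rose from 158 ± 169 to 1618 ± 754 CPM at 19 weeks, and Sdc1 from 172 ± 32.7 to 590.3 ± 297. The 12 goblet cell genes summed to a median of 33.7 CPM in saline (26.8 to 142), 696 at 11 weeks (279 to 1366), 796 at 19 weeks (167 to 1131) and 379 with isotype (244 to 1189), with 9, 11 and 11 of 12 higher. No marker was at 0 in every library of a group.

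Club cell genes, which mark another secretory cell, were mostly lower: 4 of 7 were lower in each of the 3 groups and 1, 2 and 1 higher, and their sums had medians of 17511 CPM in saline, 6156, 3912 and 3565. Scgb1a1 fell from 13953 ± 3071 to 3257 ± 1024 CPM at 19 weeks. Endothelial genes had sums with medians of 2126 CPM in saline and 1265, 907 and 869 in the 3 mite groups, and 2, 4 and 4 of 6 were lower. Macrophage and fibroblast genes moved as well: the 10 markers of alternatively activated macrophages were all higher in the 3 mite groups, with sums whose medians went from 647 CPM in saline to 23571, 17834 and 22214, and of 12 matrix fibroblast markers 5, 8 and 8 were higher and 0, 2 and 2 lower. The 2 of 12 fibroblast markers called lower were near the share of all genes, 15.6% at 19 weeks and 12.4% with isotype. Of 6 alveolar type 1 markers 3 were lower in each of the 3 groups. The 7 alveolar type 2 markers had sums with medians of 15811 CPM in saline, 20634, 26184 and 23007 in the 3 mite groups, and 2, 5 and 2 of 7 were higher. The part of all these cell types, plasma and goblet cells included, in the members' values was not tested.

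Of the 10 members with an ERSE or ERSE-II, 6, 5 and 7 were higher at 11 weeks, at 19 weeks and with isotype, with median log2 fold changes of 0.88, 0.61 and 0.78. Of the 20 members whose window holds neither, 9, 11 and 12 were higher, with medians of 0.68, 0.74 and 0.84. Over all tested genes 8.65%, 19.2% and 13.0% were called higher in the same comparisons. Calls of genes outside the members that carry these elements are not given here, so a link between element and call was not tested. Canx, Dnajc3 and Pdia6 carry an ERSE and were called in no comparison, whereas Sdf2l1 and Edem1, among the largest responders, hold neither in this window. The letters TGACGTGG, the core of the XBP1 element, were in 2 of 30 members (Kdelr3 and Sec24d) against 0.714% of genes. The letters TGATGNAAT, searched for the ATF4 composite element, were in 0 of 30 against 1.08%. That search fixed the last base as T. The Herpud1 stretch above matches on the opposite strand in all but that base, and was not counted. The 0 therefore holds for these exact letters only, and does not show that members lack ATF4 sites.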

How the data were processed

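RNA was extracted from whole lung with TRIzol and a bead kit, and strand-specific libraries were sequenced as single reads, per the labels' protocols. The authors deposited 1 table that gives an expected count, that is an estimated count of reads, per gene for 43 libraries; it is not normalized, and 76.8% of its nonzero values are whole numbers. Reads were placed on mm10, per the submitters' processing notes. Neither aligner nor counter, nor its use of strand, is stated in the labels, and 13 members share exon sequence with another gene, 12 of them with one on the opposite strand. All columns of values were matched to a sample by title.

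Expected counts were rounded, genes of low count were removed by filterByExpr, libraries were scaled by TMM, and edgeR 4.0.16 (R 4.3.3) fitted 1 mean per group over all 43 libraries with robust quasi-likelihood F-tests. P-values were adjusted by Benjamini-Hochberg over all 15979 genes and called at 0.05. A standard error is the log2 fold change divided by the square root of F. CPM uses TMM-scaled library sizes, and log2 CPM adds a prior count of 1. The slope on GC regresses each library's log2 CPM, minus the mean over libraries, on the GC content of the longest coding GENCODE vM21 transcript. Libraries above 0.75 are called steep. Library totals, given in the results, limit the precision of the genes at a few CPM most. Alternatives were other filters and scalings, DESeq2 1.42.0, limma 3.58.1 voom, only the groups compared, the replicate block, the slope as a covariate, no steep libraries, and leaving out each library.

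The members and gene lists were chosen with earlier results of these data known. All members may be named, with values per library for those called. Of 67 further pathway genes up to 4 per direction with the largest change are named, plus Xbp1, and of each marker list up to 2 of the most abundant. The scripts were tested on simulated data.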

Additional observations from a re-analysis of the deposited data

Results flagged for a closer look

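In 16 of the 252 groups of values checked, 1 library stood apart from the rest of its group by Dixon's criterion. Chance alone marks about 1 in 20 groups. Replicate 2 of the anti-IL-4Rα group, whose slope on GC was 1.10, did so for 5 members: it was lowest for Pdia6 (73.7 CPM), Dnajb11 (49.5 CPM) and Sec24d (24.8 CPM), and highest for Syvn1 (303 CPM) and Trib3 (37.8 CPM). Replicate 2 of the combination, with the lowest slope of all libraries, was highest for Dnajb9 (178 CPM) and lowest for Derl2 (41.3 CPM). Saline replicate 3 had the largest plasma cell sum and the highest slope on GC (-0.35) of its group. It was highest for Sec61b (31.4 CPM) and Ssr4 (46.9 CPM) and lowest for Eif2ak3 (20.5 CPM). Saline replicate 5 was lowest for Herpud1 (72.6 CPM). Isotype replicate 1 was highest for Creld2 (119 CPM) and Ssr1 (205 CPM). At 11 weeks replicate 8 was lowest for Atf6 (65.3 CPM) and replicate 9 highest for Trib3 (15.9 CPM). Replicate 5 of the anti-IL-33 group was highest for Derl1 (171 CPM).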

How the results depend on the processing

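Of 83 calls of a member in a comparison, 57 were kept under all 11 alternatives and with every library left out in turn: 14 at 11 weeks, 16 at 19 weeks, 16 with isotype and 11 for the combination, each against saline, and 0 for the combination against isotype. None reversed. At 11 weeks against saline the count of 17 was 28 with limma voom, 29 with only the 2 groups fitted and 27 without the steep libraries. At 19 weeks the count of 20 was 31 with the slope on GC as a covariate. For anti-IL-4Rα against isotype DESeq2 called 1. For the combination against isotype the count of 4 was 2 with no filter on low counts, 7 with DESeq2, 22 with limma voom, 1 with only the 2 groups fitted and 1 without the steep libraries. The shares of all genes called under these settings are not given here, so a change in count is not particular to the members. The cause of these differences was not tested. Leaving out 1 library gave 14 to 16 calls at 11 weeks, 17 to 20 at 19 weeks, 16 to 21 with isotype and 18 to 25 with the combination, each against saline, 0 to 13 for the combination against isotype, and 0 in the other comparisons. With the replicate block the counts were 15 at 11 weeks, 17 at 19 weeks, 17 with isotype and 20 with the combination, each against saline, and 0 for the combination against isotype and for the other comparisons; with the slope on GC as well they were 23, 27, 26, 19 and 6. Libraries of the same number deviated together in 31 of 88 pairs (correlation over 0.1) and libraries of different numbers in 280 of 702. This count over all genes showed no pairing by number, and a weaker shared effect was not tested. No scaling moved the median of all genes by over 0.1.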
